A study of Mus musculus with 9 samples.

Results

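The libraries described here hold the RNA of wild-type mouse midbrain at E14.5 (days of embryonic development), and were taken as the 3 columns labelled wild type of 9 columns of normalized counts. The series holds C57Bl/6 embryos of 3 *Nkx2.9* genotypes, wild type (+/+), heterozygous (LacZ/+) and homozygous (LacZ/LacZ), with 3 libraries each, and no comparison between genotypes is made here. The wild-type embryos carry no LacZ allele and received no treatment, and the libraries are named by their columns, 7, 8 and 9. Each library pooled cDNA of 2 dissected midbrains, so a difference between single embryos is averaged within a library, and no label says that the pools came from separate litters. The title of the series names cortical tissue, whereas the sample labels and the methods name midbrain.

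The midbrain develops between forebrain and hindbrain, and its caudal border with the hindbrain is set by the isthmic organizer. Radial glia line its ventricle and divide, and the newborn neurons migrate outward to form the tectum dorsally and the dopaminergic, red nucleus, oculomotor and GABAergic cell groups ventrally. Bulk RNA of such tissue sums all of these cells with vessels, blood and meninges, and fewer cells of a type cannot be told apart from less RNA per cell.

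Whole reads were recovered from the normalized counts, and amounted to 1692963 in column 7, 5942192 in column 8 and 5808057 in column 9. One read was therefore worth 2.59 normalized counts in column 7 but 0.702 in column 8 and 0.736 in column 9, and low genes were measured least precisely in column 7. At least 1 read lay on 19864, 24399 and 24725 genes, respectively. Levels of different genes were compared as reads per kilobase (kb) of exon, scaled so that the protein-coding genes of each library sum to 1000000. On this scale a count of 0 on 1 kb of exon allows a level of up to 9.95 in column 7, 2.84 in column 8 and 2.94 in column 9 (3 reads, counting error only).

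The marker genes of midbrain tissue were present in each library. *Otx2*, a homeodomain factor of fore- and midbrain, had levels of 70.7, 96.8 and 91.3 in columns 7, 8 and 9. *Tubb3*, the neuron-specific beta-tubulin, had levels of 4085, 4021 and 4104, a range of less than 1.5-fold. *Slc17a6*, the vesicular transporter of glutamatergic neurons, was at 166, 195 and 194. *Gad2*, a GABA-synthesizing enzyme, was at 187, 195 and 182. *Th*, the rate-limiting enzyme of dopamine synthesis, was at 37.9, 29.2 and 43.6. *Fabp7*, the lipid-binding protein of radial glia, was at 1155, 957 and 1280.5. *Otx2* was lowest in column 7, *Th* and *Fabp7* in column 8 and *Gad2* in column 9, so no library was low for all of these markers. *Tbr1*, a factor of cortical neurons, had 0, 0 and 5 reads. The targeted gene *Nkx2-9* had 0, 2 and 2 reads, too few to check a label.

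Protein-coding genes took 85.7%, 90.1% and 85.3% of the reads in columns 7, 8 and 9. Of the 21870 protein-coding genes in the table, 13708 had a read in each of the 3 libraries and 5452 had no read in any. A level of at least 1 in each library was reached by 13112 protein-coding genes (59.95%), a share that stands beside each count of listed genes below. A mean level of at least 1 was reached by 14439 genes, of at least 10 by 10636, of at least 100 by 2427 and of at least 1000 by 59. Among the genes with a read in each library, the median level was 33.5, with 10% of genes below 3.73 and 10% above 150. The 10 highest genes held 6.29% ± 0.427 (SD, n = 3) of the summed level, the 100 highest 17.5% ± 0.962 and the 1000 highest 45.3% ± 1.20.

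*Tuba1a*, an alpha-tubulin of growing neurons, was the highest protein-coding gene in each library, at 14932, 13729 and 12584 in columns 7, 8 and 9. Its mean of 13748 ± 1174 (SD, n = 3) lay above that of *Actb*, cytoplasmic beta-actin, at 8346, 8053 and 7998, and the libraries of the 2 genes did not overlap. *Nnat*, neuronatin, an imprinted gene expressed from the paternal allele, followed at 7463, 6843 and 7794. These values overlapped those of *Eef1a1*, the elongation factor that brings tRNA to the ribosome, at 6959, 6509 and 6947. The actin-binding thymosin *Tmsb10* was at 7286, 5018 and 6367, overlapping both, and was lowest in column 8. The beta-tubulins *Tubb2b* and *Tubb5* had mean levels of 5652 ± 626 and 4262 ± 165, and *Tubb3* one of 4070.0 ± 43.3. After *Eef2*, a translation factor, and *Marcksl1*, a protein that links actin to the membrane, the genes ranked 11 to 25 lay within 1913 and 2404, and most of them overlapped their neighbours over the libraries. This group held the growth-cone proteins *Basp1*, *Gap43*, *Dpysl2* and *Stmn1*, the microtubule protein *Map1b*, the 14-3-3 protein *Ywhae*, ubiquitin (*Ubb*), the chaperone *Hsp90ab1*, actin *Actg1*, *Tubb2a*, *Rplp1*, *Tmsb4x*, *Ptma*, *Ptms* and *Lars2*.

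**Figure D1:**
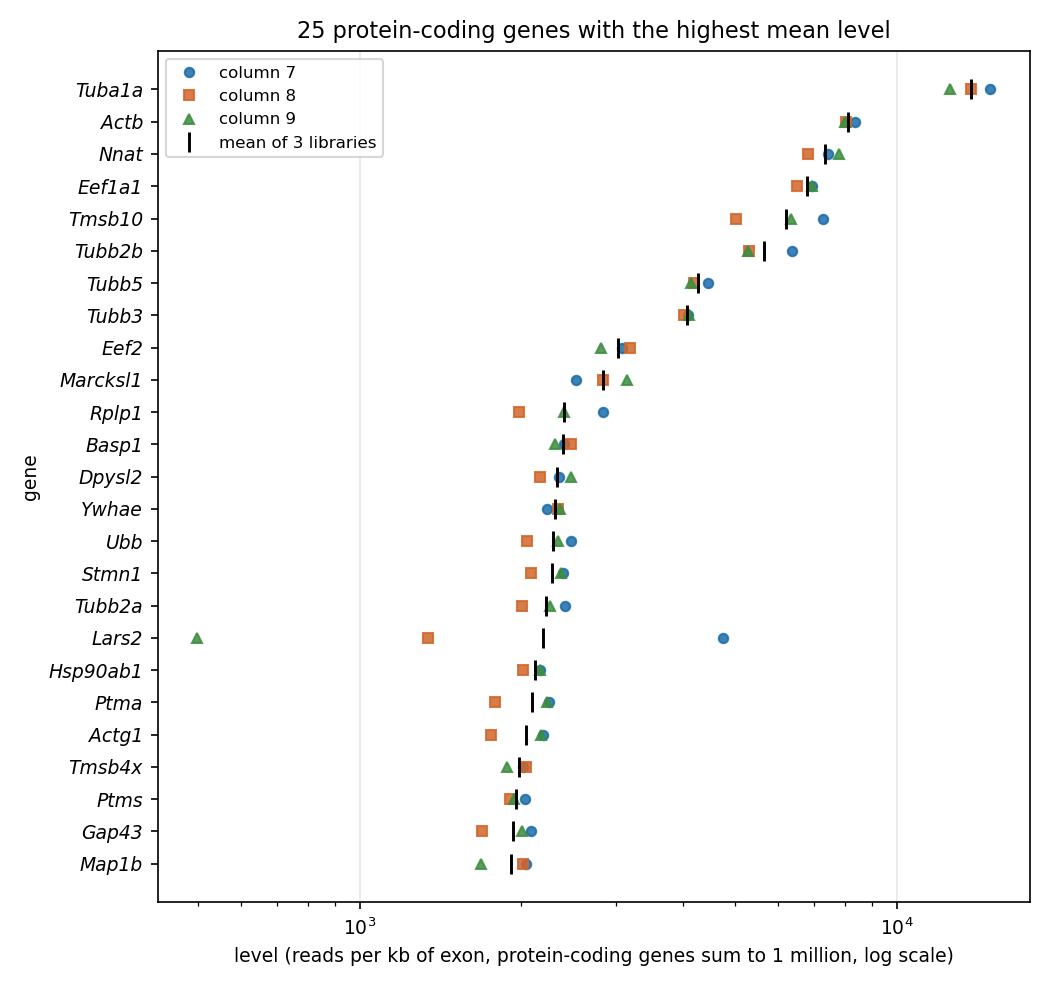
Levels of the 25 protein-coding genes with the highest mean level, in reads per kb of exon on a log axis, with 1 point per library and a bar at the mean of the 3 libraries. *Tuba1a* stood apart at 12584 to 14932, and *Lars2* was the gene whose libraries lay farthest apart, from 497 to 4740.

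The 25 genes held 9.46% of the summed level. In 24 of them the highest library was less than 1.5 times the lowest. The exception was *Lars2*, which encodes the mitochondrial leucyl-tRNA synthetase, at 4740, 1338 and 497 in columns 7, 8 and 9. Column 7 alone placed it among the highest genes. Most of the 25 genes had at least 1000 normalized counts, a class in which 98.2% of protein-coding genes lay within 1.5-fold by normalized count. The chi-square test described with the agreement of the libraries called 24 of the 25, against 70.3% of that class. The order depended on the length used. With the median transcript length of a gene in place of the union of its exons, 12 of the 25 genes remained among the 25 highest and 20 among the 100 highest. *Actb* then ranked 1, *Eef1a1* 2 and *Tuba1a* 10.

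Families were carried by 1 or a few members. *Tuba1a* made up 43.4% ± 1.36 (SD, n = 3) of the level of 15 alpha- and beta-tubulins and *Tubb3* 12.9% ± 0.847, while 3 tubulins had no read. *Tmsb10* made up 75.4% ± 3.85 of the beta-thymosins. *Stmn1* made up 45.2% ± 1.60 of the stathmins, of which the growth-cone member *Stmn2* had a level of 850 ± 53.2. Of 7 14-3-3 proteins, *Ywhae* made up 41.6% ± 0.173. *Fabp7* made up 74.2% ± 1.67 of the fatty-acid-binding proteins, ahead of *Fabp5* at 219 ± 21.8 and *Fabp3* at 173 ± 25.8, and 5 of the 9 genes had no read. Tubulin genes are alike in sequence, as are globin genes, and the counting of reads that map to several genes was not given in the sources used here.

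Genes of protein synthesis and energy metabolism were broadly present. Of 80 genes with *Rpl* or *Rps* symbols of cytosolic ribosomal proteins, a list without the stalk proteins such as *Rplp1*, 76 had a level of at least 1 in each library, with a median of 361. *Rpl36* and *Rps29* were the highest of this list, at mean levels of 1825 ± 312 and 1803 ± 392, and the germline copies *Rpl10l* and *Rpl39l* had no read. The summed level of this list was 40441, 31178 and 35414 in columns 7, 8 and 9, and column 8 was the lowest for 56 of the 76 genes. Of 97 nuclear genes of the respiratory chain and its assembly, 91 had a level of at least 1 in each library, with *Cox8a* the highest at 975 ± 116 and with column 8 the lowest for 61. All 37 genes of the mitochondrial chromosome, 13 of them protein-coding, were listed at 0 in the 3 libraries, so the mitochondrial part of the chain was not measured. Each of 20 glycolytic genes had a level of at least 1. *Ldhb* was at 379 ± 29.5 and made up 73.4% ± 3.91 of the level of *Ldhb* and *Ldha*, which encode the lactate dehydrogenase subunits. *Eno1*, the ubiquitous enolase, made up 76.9% ± 2.49 of the enolases, and the neuronal form *Eno2* had a level of 62.3 ± 8.44.

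Genes shared by neurons of all types had the highest median of the 23 marker lists. The 15 genes of this list had a median of 498. It was 254.6 with the median transcript length and 300.1 when scaled to all genes of 200 bases or more. Their summed level was 11821, 11860.0 and 11847 in columns 7, 8 and 9, that is 11843 ± 20.1 (SD, n = 3), while the list medians were 529, 504 and 452. Single genes shifted in different directions within this sum. Of the 15 genes, 12 differed between libraries by more than counting error (chi-square test described with the agreement of the libraries). This compares with 26.2% of all protein-coding genes and 70.3% of those with at least 1000 normalized counts. Below *Tubb3*, *Gap43* (growth cone) had levels of 2083, 1687 and 2008. *Mapt*, the axonal protein tau, was at 1236, 1172 and 1110.5. *Map2*, its dendritic relative, was at 696, 914 and 809, lowest in column 7. *Dcx*, which binds microtubules in migrating neurons, was at 529, 674 and 658. Lower genes of the list included *Syt1*, the calcium sensor of transmitter release, at 174 ± 20.6, *Snap25*, a SNARE of release, at 77.5 ± 7.82, and *Rbfox3*, which encodes the NeuN antigen, at 40.8 ± 5.55.

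Each of 15 genes of radial glia had a level of at least 1 in the 3 libraries, as 59.95% of all protein-coding genes had. Their median was 112, or 52.8 with the median transcript length. After *Fabp7* at 1131 ± 163, the intermediate filament genes *Vim* and *Nes* were at 297 ± 14.6 and 117 ± 12.4. The progenitor factor *Sox2* was at 114 ± 18.4, the glial fate factor *Sox9* at 40.1 ± 2.88 and *Pax6* at 16.8 ± 2.67. Notch signalling, which keeps progenitors undifferentiated, was represented by the receptor *Notch1* at 55.8 ± 5.16 and its induced repressor *Hes5* at 51.5 ± 2.64. The 12 genes of dividing cells were all detected and lower, with a median of 17.9. The replication clamp *Pcna* was at 65.3 ± 7.62, the G1 cyclin *Ccnd2* at 62.2 ± 11.01 and the proliferation antigen *Mki67* at 16.9 ± 2.69, while the mitotic cyclin *Ccnb1* was at 5.47 ± 1.11. Newborn-neuron genes had a median of 38.1, or 12.2 with the median transcript length. Among these the proneural factor *Neurog2* was at 47.7, 59.4 and 39.2 in columns 7, 8 and 9. *Neurog1* had 0, 9 and 5 reads, and *Eomes*, a factor of intermediate progenitors, 2, 8 and 12.

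**Figure D2:**
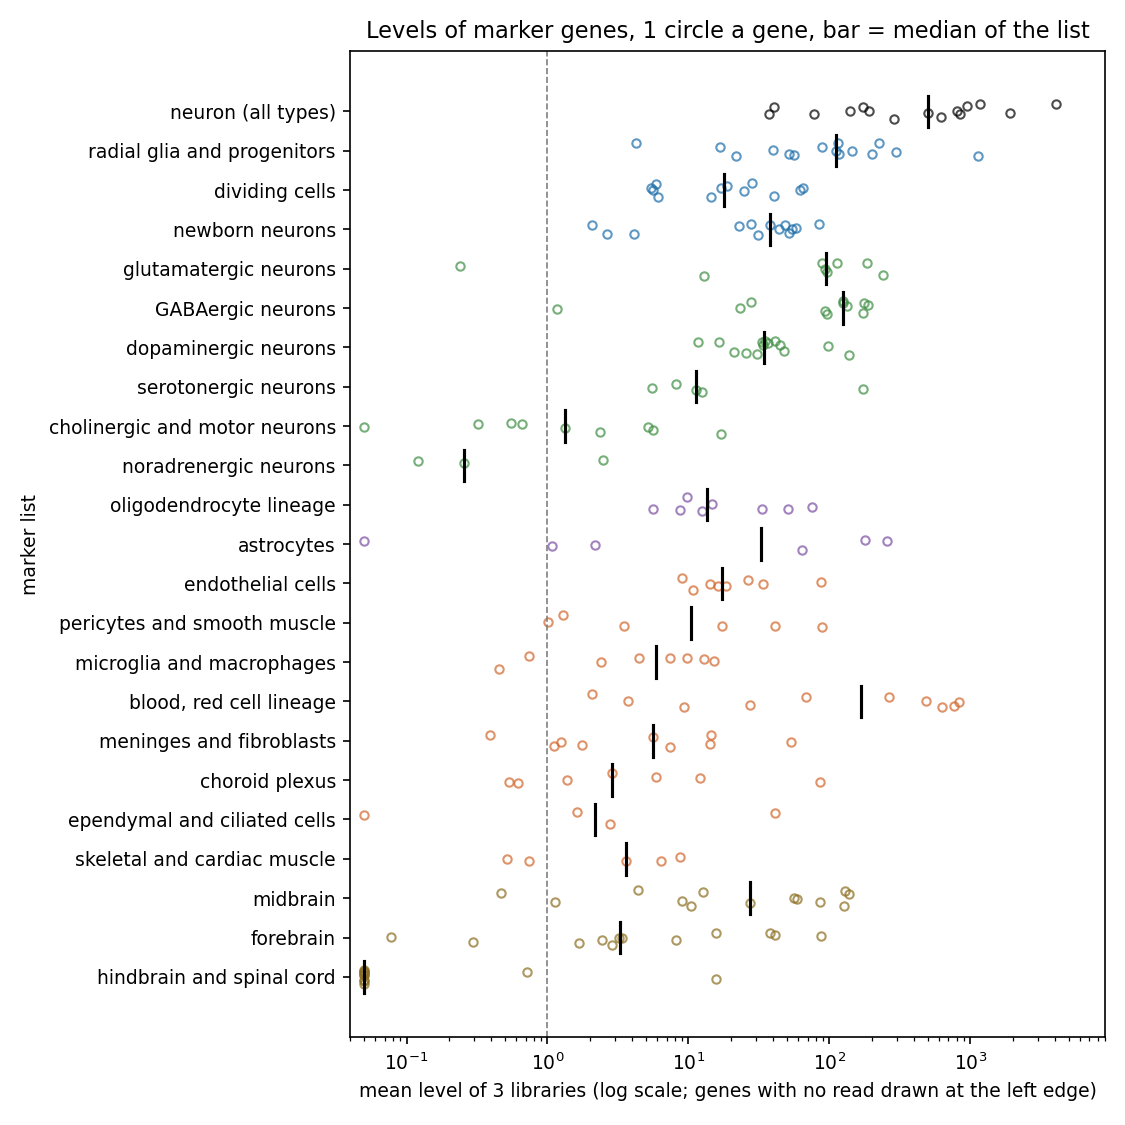
Mean level of each marker gene over the 3 libraries, on a log axis in reads per kb of exon, grouped into 23 lists with a bar at the median of the list and a dashed line at a level of 1. The neuron list had the highest median (498) and the hindbrain and spinal cord list a median of 0.

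The lists of glutamatergic and GABAergic genes had median levels of 94.8 and 125, which changed order to 43.2 and 33.3 with the median transcript length. *Slc17a6* made up 93.2% ± 3.06 (SD, n = 3) of the level of the vesicular glutamate transporters at a mean of 185 ± 16.5, and *Slc17a7*, the form of cortical neurons, had 0, 2 and 2 reads. Factors of differentiating glutamatergic neurons were *Ebf3* at 240 ± 11.7, the tectal factor *Lhx9* at 113 ± 7.88, *Barhl2* at 96.4 ± 13.4, *Barhl1* at 93.3 ± 7.32, and *Pou4f1*, a factor of red nucleus and tectal neurons, at 89.0 ± 17.3. Among GABAergic genes, *Gad2* at 188 ± 6.71 lay above *Gad1* at 73.4, 95.3 and 108 in columns 7, 8 and 9, and made up 67.2% ± 4.57 of the level of both enzymes. The vesicular GABA transporter *Slc32a1* was at 125 ± 10.2. The selector factors of midbrain GABAergic neurons reached 175 ± 15.9 for *Gata3*, 134 ± 16.4 for *Tal1* and 23.4 ± 6.63 for *Gata2*. *Tal2*, a further factor of this lineage, had 6, 149 and 90 reads, that is a level of 6.70 in column 7 against 47.4 and 29.7.

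Each of 14 genes listed for dopaminergic neurons, some of which other neurons also use, had a level of at least 1 in the 3 libraries, as 59.95% of all protein-coding genes had. The median of the list was 34.5, or 20.1 with the median transcript length. *Nr4a2*, which encodes the orphan receptor NURR1, was at 81.7, 119 and 93.3 in columns 7, 8 and 9. *Pitx3*, the homeodomain factor of dopamine neurons, was at 28.3, 32.8 and 30.8. *Slc6a3*, the dopamine transporter DAT, was at 22.1, 23.0 and 18.4. For these 3 genes the libraries lay within 1.5 times of each other, as they did for *Ddc*, the decarboxylase that makes dopamine, at 44.97 ± 2.10 and for *Slc18a2*, the vesicular monoamine transporter, at 35.04 ± 5.05. The floor-plate factors *Foxa2*, *Foxa1*, *Lmx1a* and *Lmx1b* had mean levels between 33.3 and 47.5. *Aldh1a1*, the retinaldehyde dehydrogenase also called AHD2, was at 16.1, 8.62 and 10.1. Other genes of the list spread more widely. *Drd2*, the dopamine receptor that also acts as autoreceptor, was at 26.1, 13.4 and 10.01, highest in column 7, and was 1 of 3 genes of the 14 tested, with *Nr4a2* and *En1*, whose reads differed between libraries by more than counting error (chi-square test described with the agreement of the libraries, adjusted over all genes), against 26.2% of all protein-coding genes. *Cck*, a neuropeptide gene of some dopamine neurons, was at 38.1, 15.2 and 24.0 and did not pass this test, and *Foxa2* ranged from 37.8 to 57.5.

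Serotonergic genes were detected at lower level. *Tph2*, the rate-limiting enzyme of neuronal serotonin synthesis, was at 13.8, 7.88 and 15.7 in columns 7, 8 and 9, from 12, 24 and 46 reads. The serotonin transporter *Slc6a4* was at 14.6, 8.14 and 11.04, and *Fev*, the factor PET1, rested on 4, 6 and 8 reads. The list also holds *Gata3*, which is counted with the GABAergic genes too. Of 9 cholinergic and motor neuron genes, 4 had a level of at least 1 in the 3 libraries. *Slc5a7*, the choline transporter, had 9, 32 and 36 reads and a level of 5.64 ± 0.538. *Isl1*, a LIM homeodomain factor, had 19, 126 and 20 reads, a level of 30.1 in column 8 against 15.9 in column 7 and 4.95 in column 9. *Chat*, choline acetyltransferase, had 0, 1 and 7 reads, *Phox2a*, an oculomotor factor, 0, 0 and 2, and *Mnx1* none. *Dbh*, the enzyme that defines noradrenergic neurons, had 0, 0 and 1 read.

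The lists of region factors had median levels of 27.3 for midbrain, 3.29 for forebrain and 0 for hindbrain and spinal cord, which were 18.6, 1.37 and 0 with the median transcript length, and single genes of these lists overlapped in level. Of 13 midbrain genes, 11 had a level of at least 1 in each library. *En1* was at 134, 116 and 164 in columns 7, 8 and 9 and *En2* at 128, 123 and 135, and both encode Engrailed homeodomain factors of the midbrain and isthmus. *Pax5*, of the border with the hindbrain, was at 127, 115 and 136, and *Pax7*, of the dorsal midbrain, at 69.6, 58.4 and 50.2. The isthmic signals rested on few reads, with *Wnt1* at 6, 8 and 4 reads, *Fgf17* at 0, 4 and 2 and *Fgf8* at 0, 2 and 0. *Dmbx1*, a midbrain homeodomain factor, had 7, 89 and 51 reads, and was lowest in column 7 as *Tal2* was.

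Of 12 genes listed for the forebrain, 7 had a level of at least 1 in each library, a share near the 59.95% of all protein-coding genes. *Lhx2* at 87.9 ± 7.96, *Emx2* at 41.4 ± 3.40 and *Six3* at 38.1 ± 6.16 were the highest, and none of them is restricted to the telencephalon. *Dlx1*, a factor of ventral telencephalic and diencephalic neurons, had 20, 64 and 6 reads, and *Dlx5* 2, 15 and 2, from libraries of unequal depth. Their levels were 12.3, 11.2 and 1.09 for *Dlx1* and 2.93, 6.27 and 0.867 for *Dlx5*, both lowest in column 9. Of 11 genes of hindbrain and spinal cord, 9 had no read and 1 had a level of at least 1 in each library. Over the 39 Hox genes, which pattern hindbrain and spinal cord, 36 had no read and the libraries held 0, 3 and 4 reads in all.

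Glial genes were present at an early stage. Each of 8 genes of the oligodendrocyte lineage had a level of at least 1 in the 3 libraries, with *Olig1* at 74.97 ± 4.55, *Olig2* at 33.3 ± 7.28 and *Pdgfra*, the receptor of precursors, at 9.75 ± 1.48. The myelin gene *Mbp* was at 14.8 ± 5.51, lowest in column 7, while *Sox10* rested on 9, 8 and 14 reads. Of the astrocyte genes, *Sparcl1* at 256 ± 14.2, *Slc1a2* at 178 ± 17.0 and *Aldh1l1* at 63.5 ± 6.54 are also used by radial glia or neurons, and *Gfap*, the intermediate filament of mature astrocytes, had no read. The water channel *Aqp4* had 0, 11 and 10 reads.

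Cells outside the neural tube contributed to the RNA. Red cell genes had the highest summed level of these, with a summed level of 3726, 2661 and 2886 in columns 7, 8 and 9. Adult alpha-globin *Hba-a1* was at 973, 780 and 732, and adult beta-globin *Hbb-bs* at 873, 496 and 944. Embryonic *Hbb-y* was at 792, 647 and 463. Embryonic forms made up 33.8%, 43.6% and 26.03% of the beta-like globins, and 5.48%, 5.56% and 6.68% of the alpha-like globins. Each of 8 endothelial genes had a level of at least 1 in the 3 libraries, led by the tight junction gene *Cldn5* at 87.7 ± 5.47, and the pericyte gene *Rgs5* was at 89.0 ± 15.7. Microglial genes were low, with *C1qb* at 15.3 ± 3.03 and *Csf1r* at 9.82 ± 1.32. Meningeal collagens *Col1a1* and *Col3a1* were at 14.4 ± 2.99 and 14.3 ± 3.17, and *Ttr*, the defining gene of the choroid plexus, had 8, 7 and 10 reads. Muscle genes rested on at most 20 reads in a library. The part of these cells in the levels of other genes was not tested.

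Of 565 genes in 32 families of transcription factors, 398 had a mean level of at least 1, that is 70.4% against 66.0% of all protein-coding genes, and the median levels were 7.75 and 8.71, respectively. All factors made up 1.91% ± 0.0990 (SD, n = 3) of the summed level, of which the 20 highest held 31.0%. *Sox11*, a SOXC factor of neuronal differentiation, was the highest at 1144, 1452 and 1264 in columns 7, 8 and 9, and ranked 41 among protein-coding genes. *Sox4*, its paralog, followed at 480, 639 and 541. *Tcf7l2*, a nuclear effector of Wnt signalling that marks thalamic and midbrain neurons, was at 467, 511 and 464. *Sox4* overlapped *Tcf7l2* over the libraries, while both lay below *Sox11* in each library. *Thra*, the thyroid hormone receptor, was at 405, 391 and 398, below *Tcf7l2* in each library. *Ebf3*, *Sox12*, *Mycl*, *Zfhx4*, *Myt1l* and *Id4* had means between 200.3 and 240, and *Foxk2*, *Pbx3*, *Atf4*, *Nfe2l1*, *Lhx1*, *Gata3*, *Nr2f1*, *Sall2* and *Jund* between 164 and 199. Neighbours within these groups overlapped.

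**Figure D3:**
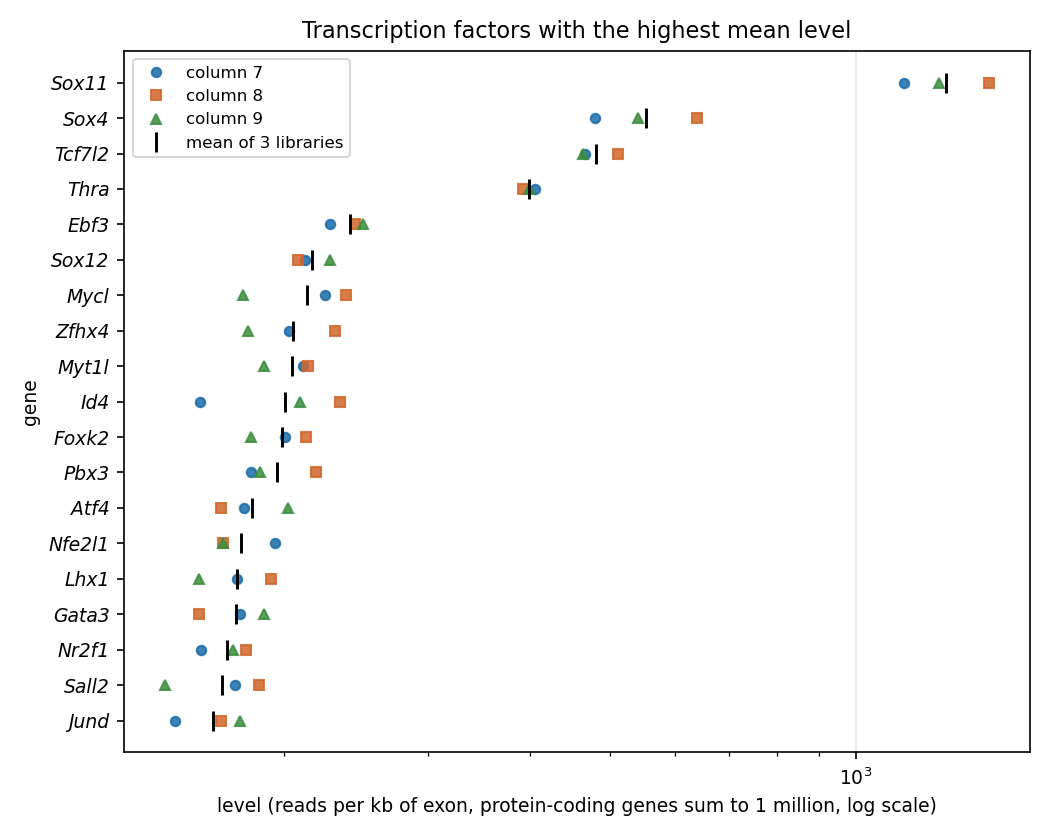
Levels of transcription factors among the 20 with the highest mean level, in reads per kb of exon on a log axis, with 1 point per library and a bar at the mean. *Sox11* (1144 to 1452) stood above *Sox4* (480 to 639), and the highest library of each factor plotted was less than 1.5 times its lowest, with *Id4* ranging from 158 to 234.

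By family, SOX factors had the highest summed level, 2572 ± 235 (SD, n = 3), and each of the 19 had a mean level of at least 1. *Sox11* alone was 50.02% of it. A mixed group of 41 zinc-finger genes, which holds BCL11, MYT1 and INSM factors together with the PRDM, SALL, TSHZ, SCRT, EGR and IKZF families, followed with 1650 ± 97.5, of which its highest gene *Myt1l* held 12.4%, and bZIP factors with 1581 ± 42.2, led by the stress-response factor *Atf4*. In contrast, TCF and LEF factors were carried by 1 gene, *Tcf7l2*, at 91.9% of the family, and GATA factors by *Gata3* at 87.5%. POU factors were more even, and the highest, *Pou3f2*, held 17.5%. Among other families, the highest members were *Lhx1* (LIM homeodomain, 29.2% of the family), *En1* (Engrailed, 51.8%), *Barhl2* (NK and related, 23.3%), *Shox2* (OTX and paired-like, 33.0%) and *Pax5* (PAX, 55.8%). T-box factors were scarce, with 3 of 16 at a mean level of at least 1, and Hox factors were the lowest family. Of the 20 highest factors, 7 shared exon positions with another expressed gene, among them *Sox4*, *Thra*, *Ebf3* and *Gata3*, and their reads cannot be told apart where strand was not used. With the median transcript length, 10 of the 20 stayed among the 20 highest, and without column 7 this was 19.

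Promoter sequence differed with level. RefSeq promoter windows (build GRCm38.p6), 300 bases from 250 before to 50 after the gene start, matched 16477 protein-coding genes by symbol. Their median number of CpG dinucleotides was 24 for genes with a mean level of at least 100, 22 at levels of 10 to 100, 12 at 1 to 10 and 2 for genes with no read. The motif TATAA, searched on the sense strand between 45 and 15 bases before the start, was held by 4.75% of all windows, 2.19% of those with a level of at least 100, 9% of the 100 highest and 10.95% of those with no read. It was held by 71.4% of 7 red cell windows. The windows of *Tubb3* and *Hba-a1* are shown because they had this motif, in capitals, and were high, while they held 26 and 4 CpG, respectively.
Tubb3, chr8:123411303-123411602, plus strand: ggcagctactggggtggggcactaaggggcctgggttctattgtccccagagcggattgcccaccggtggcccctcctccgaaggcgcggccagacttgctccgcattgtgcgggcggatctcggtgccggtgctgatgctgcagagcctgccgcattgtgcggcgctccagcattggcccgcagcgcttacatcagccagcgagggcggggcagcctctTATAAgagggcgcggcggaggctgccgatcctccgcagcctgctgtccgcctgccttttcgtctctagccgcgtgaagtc
Hba-a1, chr11:32283422-32283721, plus strand: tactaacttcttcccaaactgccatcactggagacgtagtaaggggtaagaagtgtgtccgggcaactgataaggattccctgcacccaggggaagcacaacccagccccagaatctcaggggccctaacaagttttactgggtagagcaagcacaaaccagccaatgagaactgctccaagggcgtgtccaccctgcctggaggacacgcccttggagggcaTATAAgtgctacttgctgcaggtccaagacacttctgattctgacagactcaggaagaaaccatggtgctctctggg
A match describes the letters of the window and was not tested as a site.

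Levels were spread over the chromosomes. Chromosome 11 carried 9.68% of the summed level of protein-coding genes and chromosome 2 carried 7.72%. The X chromosome carried 3.89%, and its genes with a mean level of at least 1 had a median of 30.1, against 30.7 on the autosomes. Sex-linked genes separated the libraries. *Xist*, the RNA that coats the inactive X chromosome, had 1679, 3676 and 64 reads in columns 7, 8 and 9, a level of 310, 194 and 3.50. The Y-linked translation factor *Eif2s3y* had 0, 228 and 455 reads, and the demethylase *Kdm5d* 0, 254 and 476. Column 7 thus held *Xist* without these Y-linked genes, column 8 both, and column 9 Y-linked genes with little *Xist*. The part of sex in other differences between the libraries was not tested.

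Among long non-coding RNAs, *Malat1*, a nuclear RNA of speckles, had the highest mean, at 8477, 8360 and 9262 in columns 7, 8 and 9, near the level of *Actb*. *Gm26917* was at 10557, 5911 and 5618, and *Gm15564* at 8406, 2415 and 563, so both were highest in column 7. *Gm10076* had a mean of 1610 ± 536 (SD, n = 3). Next came imprinted and neuronal RNAs. *Meg3*, expressed from the maternal allele, was at 788, 658 and 755, and *Peg13*, within an intron of *Trappc9*, at 592, 609 and 543. *2900097C17Rik* was at 494 ± 13.8 and *Miat*, a nuclear RNA of neurons, at 371 ± 13.7. *Mir124-2hg*, host of the neuronal microRNA miR-124, was at 364 ± 56.1, and *Cct6a*, which is annotated with a processed transcript class, at 318 ± 13.6. Further RNAs of known loci were *Rian* at 255 ± 30.7, *Rmst*, a neurogenic RNA of midbrain and hindbrain, at 106 ± 23.7, *H19* at 88.5 ± 13.8, *Sox2ot* at 16.4 ± 1.84 and the paraspeckle RNA *Neat1* at 5.18 ± 1.88.

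Small RNAs took few genes and many reads. The class of miscellaneous RNAs, mostly transcripts of RNA polymerase III, had a read in each library for 44 genes but held 3.73%, 1.98% and 6.34% of all reads in columns 7, 8 and 9. *Rn7sk*, the 7SK RNA that holds back transcription elongation, had 30143, 46710 and 92540 reads. *Rn7s1* and *Rn7s2*, identical over their 300 bases, encode the 7SL RNA of the signal recognition particle, and had 11679, 8372 and 10822 reads and 8049, 14426 and 26536 reads. Which of the identical copies a read came from cannot be told apart by sequence. *Rpph1*, the RNA of RNase P, had 12104, 29610 and 39929 reads, and *Rmrp*, of the related RNase MRP, 1199, 2492 and 2945. *Scarna2*, the highest of the Cajal body RNAs, had 938, 2351 and 2713.

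Spliceosomal U1 RNA was the highest of the small nuclear RNAs. It recognizes the start of most introns through its own 5′ end, which pairs with the 5′ splice site. *Gm22317* had 18831, 34037 and 45571 reads, *Gm22513* 10517, 24243 and 27808, and *Gm25679* 2280, 5051 and 8474. *Gm22317* and *Gm25679* did not differ over their 164 bases and *Gm22513* differed from them at 1 base, so the split of reads between them is uncertain. The sequence (GENCODE, build GRCm38) is shown with the 11 bases at the 5′ end and the AATTTGTGG of the Sm protein site in capitals.
Gm22317, chr12:54738459-54738622, minus strand: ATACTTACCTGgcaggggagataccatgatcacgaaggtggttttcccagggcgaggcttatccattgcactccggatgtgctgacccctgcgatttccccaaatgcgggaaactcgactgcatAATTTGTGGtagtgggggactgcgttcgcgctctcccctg
Both stretches lay in 1 transcript, at bases 1 to 11 and 125 to 133.

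Y RNAs, which bind the Ro60 protein, were among the small RNAs that were highest in column 9. *Rny3* had 6811, 25804 and 171527 reads in columns 7, 8 and 9, that is 0.402%, 0.434% and 2.95% of all reads. *Rny1* had 4822, 16936 and 59211 reads, or 0.285%, 0.285% and 1.02%. Columns 7 and 8 were close in share for both and column 9 was higher. The RNAs are shown for comparison, with the longest stretch that they share in capitals.
Rny1, chr6:47788069-47788180, minus strand: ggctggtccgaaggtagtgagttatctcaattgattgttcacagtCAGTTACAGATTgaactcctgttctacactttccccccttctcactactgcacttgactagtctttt
Rny3, chr6:47781624-47781725, plus strand: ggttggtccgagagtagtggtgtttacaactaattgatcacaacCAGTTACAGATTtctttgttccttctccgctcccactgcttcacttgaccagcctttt
The shared stretch was 12 bases long, at positions 46 to 57 of *Rny1* and 45 to 56 of *Rny3*. The small nucleolar RNA *Gm23442* was also highest in column 9, at 77, 135 and 3143 reads. Unlike the Y RNAs, its share differed between columns 7 and 8, at 0.00455% and 0.00227%. *Gm26397*, the highest of its class, was at 460, 1491 and 1372 reads.

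**Figure D4:**
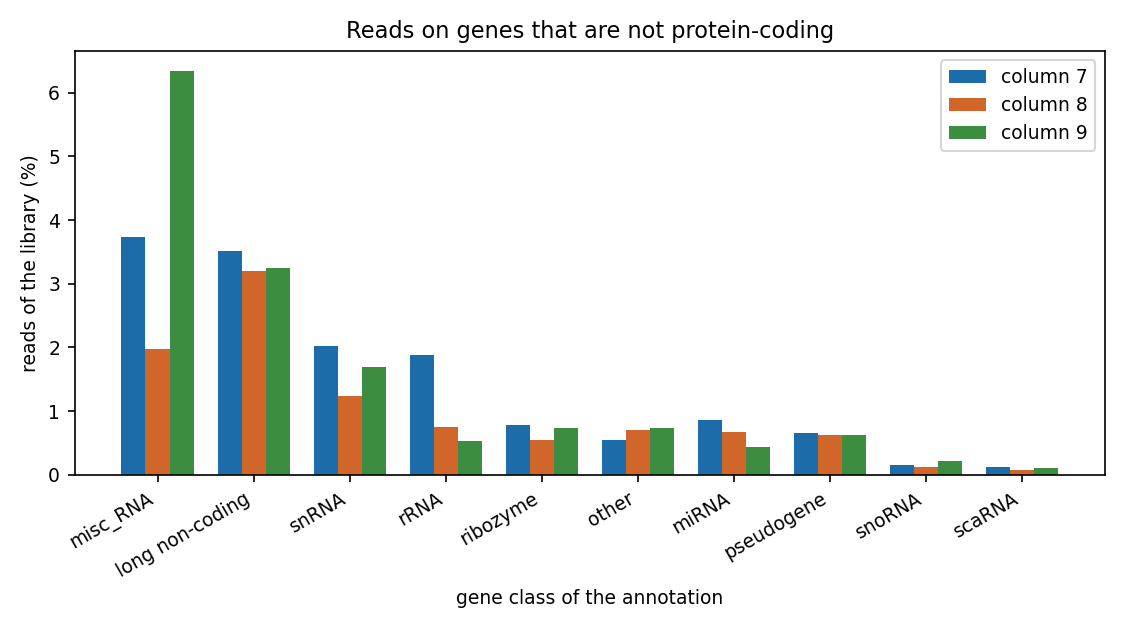
Share of the reads of each library, in percent, on the annotated gene classes other than protein-coding, with 1 bar per library. Miscellaneous RNAs ranged from 1.98% in column 8 to 6.34% in column 9, and rRNA from 0.534% in column 9 to 1.89% in column 7.

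By share of reads, several further RNAs were highest in column 7 and lowest in column 9. *CT010467.1*, annotated as rRNA, had 31896, 44695 and 30897 reads, or 1.88%, 0.752% and 0.532% of each library. *Gm15564* and *Lars2* were also highest in column 7, at 0.123%, 0.0353% and 0.00811% and at 0.936%, 0.264% and 0.0968% of reads. Over 72 bases the *Lars2* transcript matched *Gm15564* at 98.6% identity. *Gm23935* and *Gm24270*, annotated as microRNAs and identical over 57 bases, had 12635, 35186 and 22216 reads and 1361, 3253 and 1449 reads. Their sequence is shown because it held most reads of its class.
Gm23935, chr16:11144125-11144181, plus strand: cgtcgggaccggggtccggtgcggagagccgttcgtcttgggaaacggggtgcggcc
The part of rRNA left after depletion in these values was not tested.

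The 3 libraries agreed closely for protein-coding genes with many reads. Over 11960 protein-coding genes with at least 5 expected reads in each library, the correlation of log2(level + 1) across genes was 0.981 (Pearson) and 0.983 (Spearman) for columns 8 and 9, 0.960 and 0.966 for columns 7 and 8, and 0.960 and 0.967 for columns 7 and 9. These describe agreement across genes, which are not independent replicates. The median absolute difference in log2(normalized count + 1) was 0.17 between columns 8 and 9, 0.25 between 7 and 8 and 0.24 between 7 and 9. Normalized counts lay within 1.5-fold for 93.0%, 83.3% and 84.7% of genes, respectively, and column 7 had the fewest reads.

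A chi-square test of homogeneity across the libraries, on recovered reads with Benjamini-Hochberg adjustment, called 3506 of 13803 genes at an adjusted p under 0.05 (25.4%), 3130 of 11960 protein-coding genes (26.2%) and 376 of 1843 other genes (20.4%). The test asks whether reads differed by more than counting error between these libraries, and includes differences between pools of embryos and between preparations. The share called rose with depth, from 13.2% of the 1372 protein-coding genes with 10 to 30 normalized counts to 70.3% of the 653 genes with at least 1000. The spread itself fell in the opposite direction, with a median coefficient of variation (CV) of 29.7% at 10 to 30 normalized counts, where counting error alone gave 25.5%, and of 7.87% at 1000 or more, where counting error gave 3.06%. Beyond counting error, the median CV was 7.37% in the highest class. Of the genes tested, 92 of 325 transcription factors and 57 of 75 ribosomal protein genes were called, against 26.2% of all protein-coding genes. Most of these ribosomal genes had 300 to 1000 normalized counts, where 41.2% of protein-coding genes were called.

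**Figure D5:**
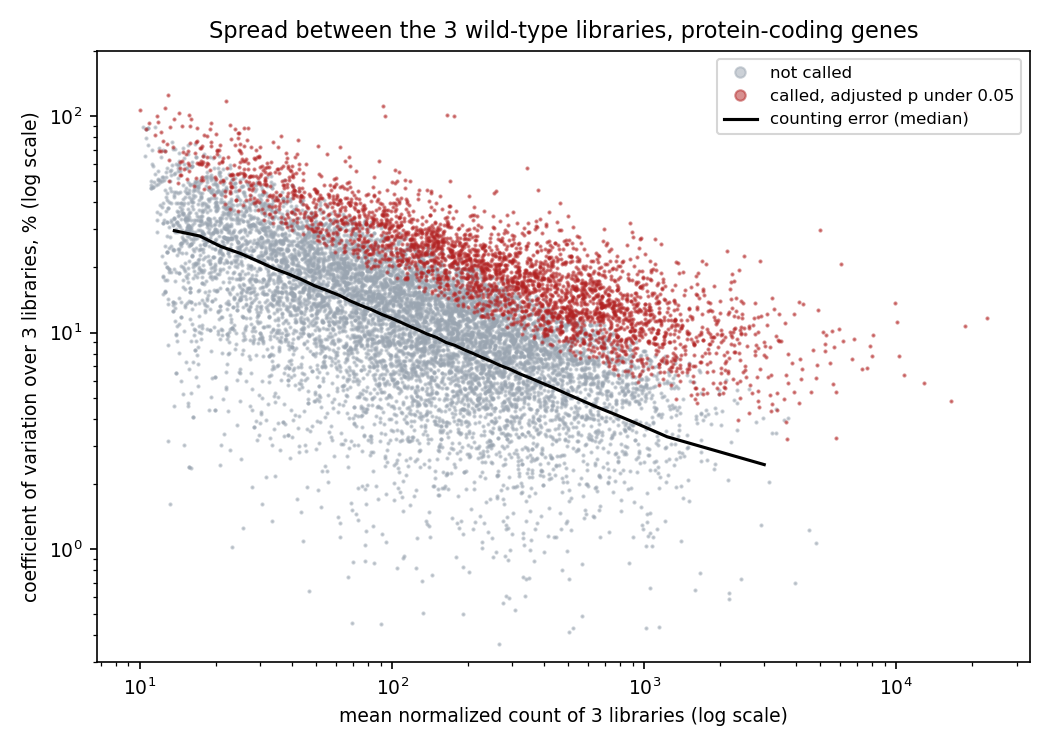
Coefficient of variation over the 3 libraries (in percent, log axis) against mean normalized count (log axis) for 11960 protein-coding genes, with called genes in red and the median counting error as a line. The spread followed the line at low counts and levelled off above it at high counts, at a median of 7.87% for genes with at least 1000 normalized counts.

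The ratio between libraries shifted with exon length. Among protein-coding genes with at least 100 normalized counts, the median log2 ratio of column 8 to column 9 was -0.29 for 63 genes with under 1000 bases of exon, -0.16 for 338 genes of 1000 to 2000 bases and 0.09 for 2090 genes of more than 8000 bases. For column 7 against column 8 it was 0.57, 0.26 and -0.08 in the same classes, and for column 7 against column 9 it was 0.25, 0.10 and -0.01. The low values of ribosomal protein genes in column 8 moved with this difference, whose cause was not tested.

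Large differences between libraries were few. Of 7297 protein-coding genes with a mean of at least 100 normalized counts, 62 differed by more than 2-fold between the highest and the lowest library, whereas of 204 other genes 38 did. After *Lars2* and the Y-linked genes, the protein-coding genes with the largest CV beyond counting error were *Wdfy1*, at 59, 779 and 445 reads in columns 7, 8 and 9, and *Cwf19l2*, at 22, 238 and 113. Both were lowest in column 7, as were *Mis12* (22, 249 and 167 reads), *Dnajb4* (18, 170 and 194) and *Ap1s2* (22, 171 and 219). The replication-dependent histone genes *Hist1h2bg* and *Hist1h3h* were highest in columns 9 and 7, with levels of 252, 91.8 and 338 and of 646, 276 and 394, and were lowest in column 8. *Zfp212*, *Sec61b*, *Gm9844* and *Hbb-bt* were each highest in column 7 by level, with *Hbb-bt* at 717, 340 and 391. Among the other genes, *Gm23442*, the small nuclear RNA *Gm22634* (35, 136 and 1416 reads), *Snord118*, which encodes the U8 RNA (16, 28 and 413), *Rny3*, *Gm25099* and *Gm24924* were highest in column 9, *Gm15564*, *Rn7s1* and *Gm24187* were highest in column 7 by level, and *Xist* was lowest in column 9.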

How the data were processed

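RNA of wild-type E14.5 midbrain was read from the deposited table of normalized counts, a signal that the authors made by dividing gene counts by 1 size factor per library. Per the study's methods, RNA was depleted of rRNA, cDNA of 2 midbrains was pooled per library, and 100-base paired reads were aligned with HISAT2 to mm10 and counted with featureCounts. The labels instead describe an mRNA preparation. Versions, the annotation, strand and the handling of multi-mapped reads are not given in the sources used here. The authors' tables of genotype comparisons, which hold their fold changes and p-values, were not used.

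Whole reads were recovered for 100% of 68988 values above 0 (tolerance 0.001 reads). Of 51912 genes, 51719 matched GENCODE vM21, which supplied classes and exon lengths, and 193 without a match held 0.0276% of reads. Levels are reads per kb of the union of exons, scaled to a sum of 1000000 over protein-coding genes. Libraries were compared with a chi-square test on reads (at least 5 expected, 2 degrees of freedom, Benjamini-Hochberg adjustment), tested on simulated data. Columns could be tied to the wild-type group but not to single samples. p-values measure the spread between these libraries only, and intervals cover counting error only. The 25 highest genes, the 20 highest transcription factors and each family's highest member, the 10 highest long non-coding RNAs, the 3 highest small RNAs per class, all list genes, and the 15 protein-coding and 10 other genes with the largest variation beyond counting error (mean of at least 100 normalized counts) were eligible to be named, and some of them are not reported here. Members and lists were chosen with earlier results of these data known. Tools were Python 3.11.15, NumPy 2.4.6, pandas 2.3.3, SciPy 1.17.1, R 4.3.3, edgeR 4.0.16 (TMM factors only) and BLAST+ 2.17.0. Alternatives were TMM or total-read scaling, stricter minimums, another statistic, other lengths and scalings, and leaving out each library.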

Additional observations from a re-analysis of the deposited data

How the results depend on the processing

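The number of genes that varied between libraries was 3506, and 3528 with TMM factors, 3428 with total protein-coding reads, 3574 with the likelihood-ratio statistic and 3123 with at least 20 expected reads. Leaving out each library in turn gave 1691 to 2098 genes (2098 without column 7, 1691 without column 8 and 1929 without column 9), where 2 libraries are compared with 1 degree of freedom. The 13112 protein-coding genes at a level of at least 1 became 12575 to 13821 under the alternatives that kept this level, and 11257 at a level of at least 5. The share of level in the 100 highest genes became 16.9% to 17.9%. Length had the largest effect on the order of genes, since 48 of the 100 highest genes stayed among the 100 highest with the median transcript length and 50 with no adjustment for length, against 96 to 97 on leaving out a library. Of the 23 median levels of marker lists, 17 moved by more than the spread between libraries with the median transcript length (the neuron list to 254.6, the GABAergic list to 33.3), and 17 when scaled to all genes of 200 bases or more. The neuron list had the highest median and the red cell list the next under each of these settings. Scaling to another set of genes multiplies all genes of a library by 1 factor, so it could hardly change this order. With the median transcript length the astrocyte list rose from 32.8 to 54.0, above radial glia at 52.8, and the GABAergic list left the 5 highest. Low genes are limited by the depth of column 7. No paired analysis was possible because one group was described and its columns carry no replicate numbers.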
